A study of Homo sapiens with 4 samples.

Results

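The 10 genes described here encode the subunits of the transcription factor NF-κB and the proteins that hold it in check. They are the rows of the deposited expression table whose gene name is NFKB1, NFKB2, RELA, RELB, REL, NFKBIA, NFKBIB, NFKBIE, TNFAIP3 or BCL3, and each name was found on 1 row among 57815 genes. RNA-Seq of total RNA was done in MDA-MB-231, a triple-negative human breast cancer cell line referred to as the parental line, and in LM2-4175, a derivative of MDA-MB-231 that metastasizes to the lung, here called LM2. Both lines were left untreated and grown in DMEM with 10% FBS, and each was sequenced in 2 libraries. The table merges the libraries of a line into 1 FPKM (fragments per kilobase, adjusted for sequencing depth) with an upper and a lower bound. There is thus no replicate check on any difference described here, and the bounds may or may not include the variation from library to library.

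NF-κB is a dimer of Rel proteins. In a resting cell the classical inhibitors, IκBα (NFKBIA), IκBβ (NFKBIB) and IκBε (NFKBIE), keep dimers such as RELA with the product of NFKB1 in the cytoplasm. Inflammatory signals lead to phosphorylation and degradation of IκB, while a slower branch processes the NFKB2 precursor and frees RELB dimers. The genes of IκBα and of TNFAIP3, a ubiquitin-editing enzyme that shuts off signalling upstream, are themselves switched on by NF-κB, which closes a negative feedback loop. In breast cancer cells NF-κB is known for driving cytokine and survival genes.

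Markers were checked against the labelled cell type. All 6 mesenchymal markers were tested, and their summed level was 3199 FPKM in the parental line and 2930 FPKM in LM2. VIM stood at 1355 and 1768 FPKM, CAV1 was called lower in LM2 (587.3 and 151.1 FPKM), and the median log2 change of the 6 was -0.30. Among 7 hormone receptor and luminal markers, EPCAM was called lower (12.3 and 4.93 FPKM), the receptor genes ESR1 (0.0331 and 0.0186 FPKM) and PGR (0.0124 and 0.00438 FPKM) were near 0, while ERBB2 was at 34.95 and 22.8 FPKM. Of 8 leukocyte markers 1, CD14, reached the filter on low values, and their summed level was 1.961 FPKM in the parental line and 2.04 FPKM in LM2. The pan-leukocyte gene PTPRC was near 0 in both (0.0767 and 0.0263 FPKM). The summed level of 4 fibroblast markers was 4.65 FPKM and 31.2 FPKM. COL1A1 was called higher in LM2 (3.16 and 31.0 FPKM) and LUM lower (1.34 and 0.178 FPKM), with DCN and PDGFRA near 0. The part of these markers' differences in the results below was not tested.

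NFKBIA and TNFAIP3, both of them feedback genes, were higher in LM2, and the other 8 genes were not called. A call required a mean of at least 0.5 FPKM, a change of at least 1.5-fold after adding 1 to each FPKM, and bounds that did not overlap between the lines. All 10 genes passed the filter, with no value under 2.05 FPKM in either line. The 2 members called higher compare with 4.67% of the 13911 tested genes, the 0 called lower with 4.61%, and the 2 called in either direction with 9.27%. The fold alone was reached by 3 members upward and 1 downward, as by 10.3% and 11.8% of all tested genes. The FPKM was higher in LM2 for 7 members and for 45.5% of all tested genes. The median log2 change of the members was 0.35, beside -0.044 over all tested genes.

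**Figure D1:**
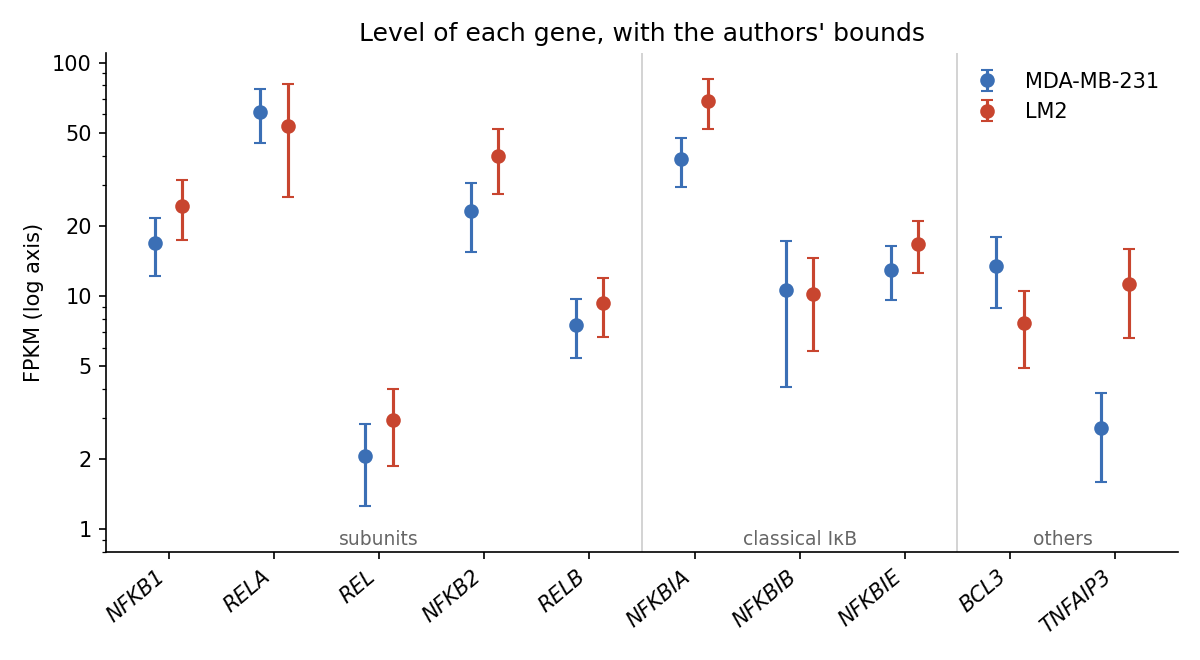
FPKM of the 10 genes on a log axis in MDA-MB-231 (blue) and LM2 (red), with bars for the authors' lower and upper bounds and 1 pooled value per cell line. The bars are apart for NFKBIA and TNFAIP3 and overlap for the other 8 genes.

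Among the subunits, RELA, which carries a strong activation domain, had the highest level in both lines. The parental cells held 61.2 FPKM, with bounds at 45.2 and 77.2, against 53.7 FPKM in LM2, with bounds at 26.6 and 80.8. The LM2 bounds reach 50.5% of the value to each side and contain the whole parental range, whose bounds reach 26.1%. The difference, LM2 minus parental, was -7.49 FPKM with a 95% interval from -38.3 to 23.3 FPKM, where the upper bound is counted as lying 2 standard errors from the FPKM. A change of RELA in either direction could not be resolved.

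NFKB1, whose precursor is cut to the usual partner of RELA, measured 16.9 FPKM in the parental line, bounded by 12.2 and 21.6, and 24.4 FPKM in LM2, bounded by 17.4 and 31.4. The log2 change of 0.50 lies under the 1.5-fold threshold and the bounds overlap. Its difference of 7.48 FPKM had a 95% interval from -0.765 to 15.7 FPKM. For NFKB2, the precursor gene of the slower branch, the values were 23.0 FPKM with bounds at 15.5 and 30.6, and 39.7 FPKM with bounds at 27.3 and 52.0. The log2 change of 0.76 passed 1.5-fold, but the LM2 lower bound lies below the parental upper bound, so NFKB2 was not called. The difference of 16.6 FPKM was 2.30 standard errors, with a 95% interval from 2.45 to 30.8 FPKM. A rule of 1.5-fold and a 95% interval that leaves out 0 would call NFKB2, and it would call 14.4% of all tested genes in one direction or the other.

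RELB, the partner of the processed NFKB2 product, was less abundant. Parental cells gave 7.54 FPKM (bounds at 5.42 and 9.67) and LM2 gave 9.29 FPKM (bounds at 6.68 and 11.9), a log2 change of 0.27 with overlapping bounds. REL, the subunit best known from lymphocytes, had the lowest level of the 10 genes in both lines. It measured 2.05 FPKM, bounded by 1.26 and 2.84, in the parental line and 2.93 FPKM, bounded by 1.87 and 3.99, in LM2. The log2 change was 0.36, and the difference of 0.877 FPKM had a 95% interval from -0.420 to 2.17 FPKM. A lncRNA gene on the same strand (ENSG00000267520, 0.162 and 0.436 FPKM) covers 33.3% of the exon bases of REL in the annotation GENCODE 44. The FPKM were quantified on GENCODE 19, where the overlap was not measured. How the reads were split between these genes is therefore not known.

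NFKBIA was the most abundant of the inhibitors and was called higher in LM2. Its FPKM was 38.5 in the parental line, bounded by 29.3 and 47.6, and 68.5 in LM2, bounded by 52.1 and 84.9. The LM2 range begins above the end of the parental range, by a gap that is small beside either of them. The ratio of FPKM was 1.78, the log2 change 0.82, and the difference 30.0 FPKM or 3.20 standard errors. Of the tested genes, 871 had a larger log2 increase. When 2-fold was required, NFKBIA was not called. In bulk libraries, more RNA per cell and a larger share of cells with high NFKBIA cannot be told apart.

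The other classical inhibitors were not called. NFKBIE measured 12.99 FPKM (bounds at 9.63 and 16.3) in parental cells and 16.8 FPKM (bounds at 12.5 and 21.0) in LM2, a log2 change of 0.34. NFKBIB measured 10.6 FPKM (bounds at 4.09 and 17.1) and 10.2 FPKM (bounds at 5.81 and 14.6). Its log2 change of -0.051 turned positive under some scalings of the lines, and its difference of -0.403 FPKM had a 95% interval from -8.12 to 7.31 FPKM. SIRT2, on the opposite strand, overlaps 1.72% of the exon bases of NFKBIB.

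TNFAIP3 had the largest log2 change of the 10 genes. Parental cells held 2.72 FPKM, bounded by 1.59 and 3.84, and LM2 held 11.2 FPKM, bounded by 6.63 and 15.8. The LM2 lower bound is well above the parental upper bound. The ratio of FPKM was 4.13, the log2 change 1.72, and the difference 8.51 FPKM or 3.59 standard errors. Of the tested genes, 198 had a larger log2 increase. TNFAIP3 was called higher under all 11 alternatives run. WAKMAR2, a lncRNA gene on the opposite strand listed at 0.196 and 0.313 FPKM, overlaps 1.47% of its exon bases.

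BCL3, an atypical IκB protein that acts in the nucleus with dimers of the NFKB1 and NFKB2 products, had a lower value in LM2 without a call. The FPKM was 13.4 in the parental line, bounded by 8.91 and 17.9, and 7.68 in LM2, bounded by 4.89 and 10.5. The log2 change of -0.73 is past 1.5-fold, and the ranges overlap at their ends. The difference of -5.74 FPKM was -2.17 standard errors, with a 95% interval from -10.9 to -0.547 FPKM.

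**Figure D2:**
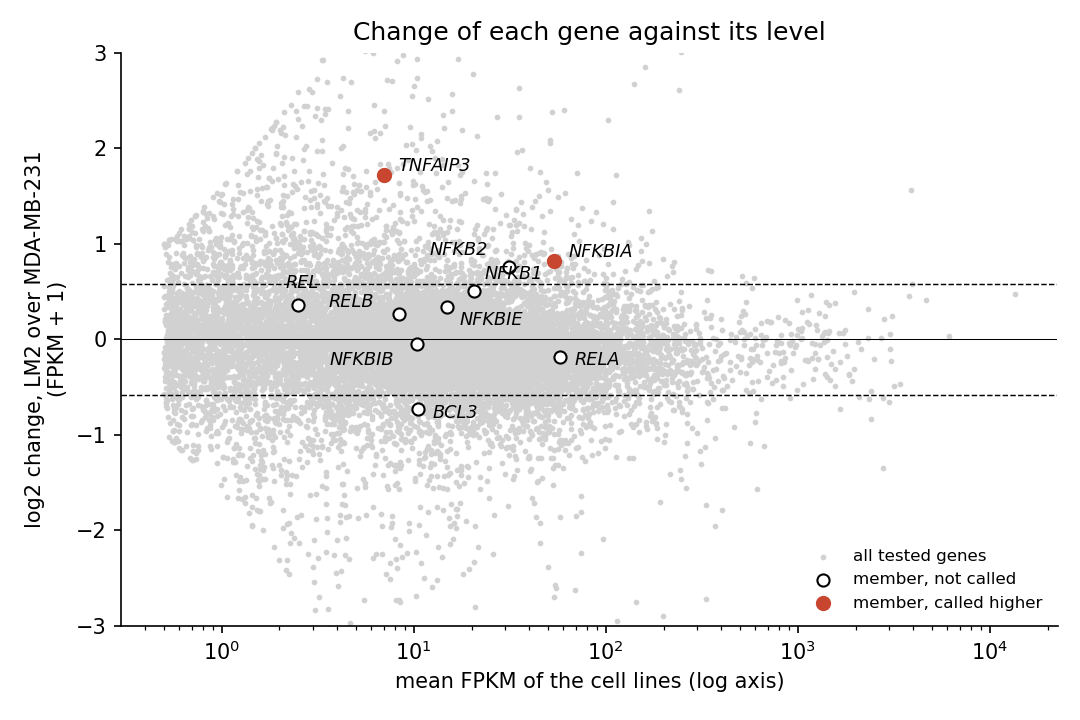
Log2 change of LM2 over MDA-MB-231 on FPKM + 1 against the mean FPKM (log axis) for tested genes (grey) and the 10 members (circles, filled red where called). Dashed lines mark 1.5-fold, and the vertical axis ends at a log2 change of 3 either way, beyond which 85 genes lie. NFKBIA and TNFAIP3 are filled, and NFKB2 and BCL3 lie past the lines as open circles.

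Since FPKM is per length, levels of different genes can be ordered within a line. In the parental line the order from the highest FPKM ran RELA, NFKBIA, NFKB2, NFKB1, BCL3, NFKBIE, NFKBIB, RELB, TNFAIP3 and REL. The bounds of neighbours in this order overlap for every pair but RELB and TNFAIP3. In LM2 it ran NFKBIA, RELA, NFKB2, NFKB1, NFKBIE, TNFAIP3, NFKBIB, RELB, BCL3 and REL, and the bounds of neighbours overlap for every pair but BCL3 and REL.

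The 5 subunits summed to 110.8 FPKM in the parental line and 130.0 FPKM in LM2. RELA made up 55.3% and 41.3% of this sum, NFKB2 20.8% and 30.5%, and NFKB1 15.3% and 18.8%. The classical inhibitors summed to 62.1 FPKM and 95.5 FPKM, of which NFKBIA was 62.0% and 71.8%. The ratio of the inhibitor sum to the subunit sum was 0.560 in the parental line, where the bounds allow 0.303 to 1.02, and 0.734 in LM2, where they allow 0.391 to 1.51. NFKBIA had 0.628 times the FPKM of RELA in the parental line (0.379 to 1.05) and 1.28 times in LM2 (0.645 to 3.19). The ratio of TNFAIP3 to NFKBIA was 0.0707 (0.0335 to 0.131) and 0.164 (0.0781 to 0.304), and that of BCL3 to NFKB2 was 0.582 (0.291 to 1.16) and 0.194 (0.0941 to 0.383). With every bound at its extreme, the ranges of the lines overlap for each of these ratios.

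**Figure D3:**
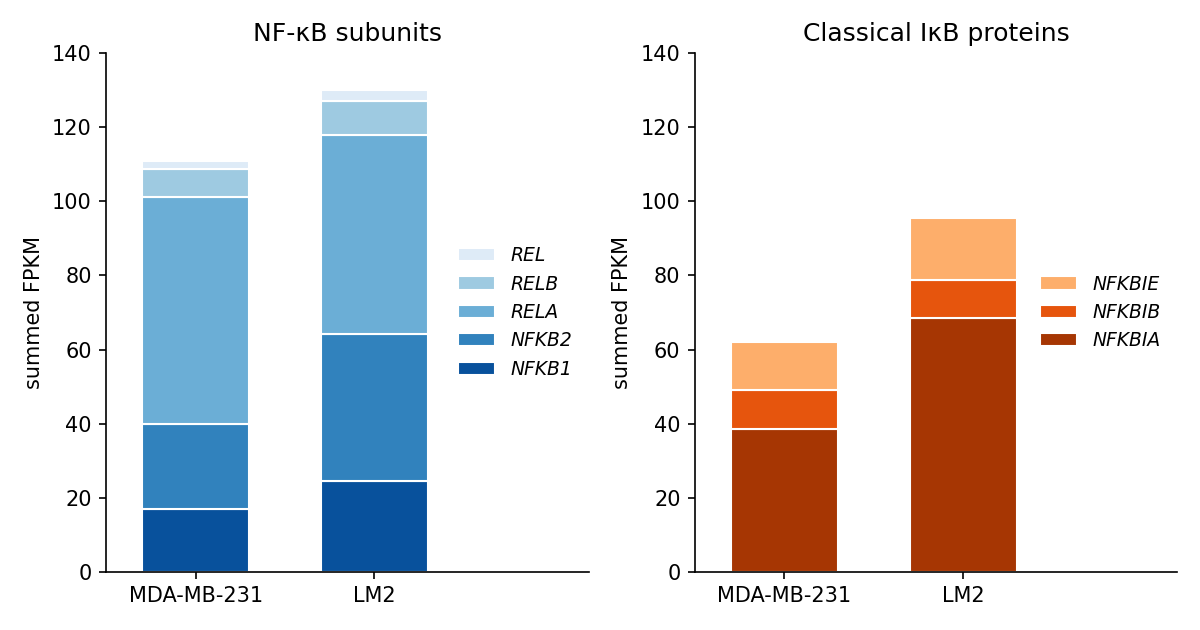
Summed FPKM of the 5 NF-κB subunit genes (left) and the 3 classical IκB genes (right) in each cell line, stacked by gene, with 1 pooled value per gene and no error drawn. The NFKB2 block is taller in LM2 (39.7 against 23.0 FPKM), as is the NFKBIA block (68.5 against 38.5 FPKM).

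The promoters were searched for the motif that NF-κB binds, since several members are known targets of their own pathway. RefSeq windows from 250 bases before to 50 after a start (table build GRCh38.p14) were matched for 8 of the 10 genes, RELB and NFKBIE not among them, and positions are from an exact match of the windows to GRCh37. The κB consensus was taken as GGGNNNNNCC with a purine at the fourth base and pyrimidines at the seventh and the eighth, on both strands, where overlapping matches were counted. It was present in 7 of the 8 genes and in 8 of 13 windows (61.5%), beside 11.3% of all 35116 windows. By gene, 17.4% of the tested genes found by symbol held it. GGGNNNNNCC without the further letters was in all 13 member windows and in 58.7% of all windows. The member windows had a median GC content of 68.7%, beside 58.7% for all windows. The 2 genes called higher are shown with the bases that lie before the annotated gene, and capitals mark the consensus matches. NFKBIA (chr14:35873956-35874205, minus strand) has 1 match, 81 bases before its RefSeq start. TNFAIP3 (chr6:138188146-138188350, plus strand) has 2 matches, 67 and 55 bases before its RefSeq start. That start lies inside the annotated gene, so the second match ends at the last base before the gene.
NFKBIA: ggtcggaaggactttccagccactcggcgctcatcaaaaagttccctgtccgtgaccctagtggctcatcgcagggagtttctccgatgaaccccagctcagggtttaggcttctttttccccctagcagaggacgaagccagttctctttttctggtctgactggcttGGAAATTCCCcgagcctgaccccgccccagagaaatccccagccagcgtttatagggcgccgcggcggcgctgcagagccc
TNFAIP3: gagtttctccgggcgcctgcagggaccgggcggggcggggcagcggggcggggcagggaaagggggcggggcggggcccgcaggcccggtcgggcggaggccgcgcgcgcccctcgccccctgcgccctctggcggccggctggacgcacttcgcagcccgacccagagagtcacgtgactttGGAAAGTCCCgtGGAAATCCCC

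Members that were not called also held the consensus, and 1 site each is shown for comparison with 10 bases to either side. The sites come from REL (chr2:61108662-61108671), NFKB1 (chr4:103422467-103422476), NFKB2 (chr10:104155441-104155450), NFKBIB (chr19:39390581-39390590) and BCL3 (chr19:45251967-45251976), on the plus strand. RELA had no consensus match in its 2 windows. A match describes letters, and binding was not measured here.
REL: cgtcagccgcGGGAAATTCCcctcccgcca
NFKB1: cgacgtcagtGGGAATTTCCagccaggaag
NFKB2: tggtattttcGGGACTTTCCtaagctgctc
NFKBIB: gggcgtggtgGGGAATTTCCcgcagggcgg
BCL3: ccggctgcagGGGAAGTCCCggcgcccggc

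The members were set beside other genes of the pathway, in lists chosen with earlier results of these data known. Of 22 further inhibitors and feedback genes, 21 were tested, 6 were called higher (28.6%, beside 4.67% of all tested genes) and 0 lower, with a median log2 change of 0.37. ZC3H12A, a ribonuclease that degrades cytokine mRNAs, rose from 3.99 FPKM (bounds at 2.65 and 5.34) to 24.4 FPKM (bounds at 17.5 and 31.3). TNIP1 and TNIP3 encode proteins that bind TNFAIP3. TNIP1 rose from 94.7 to 241.6 FPKM and TNIP3 from 0.342 to 3.06 FPKM, log2 changes of 1.34 and 1.598. TNIP3 passed the filter through LM2, with less than 0.5 FPKM in the parental line. The other genes called were BIRC3, TRAF1 and NKRF, with log2 changes of 1.23, 0.85 and 0.70.

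Of 28 upstream kinases, adaptors and ubiquitin ligases, 0 were called higher and 2 lower (7.14%, beside 4.61% of all tested genes), with a median log2 change of -0.11. A share this near the background is no result about the list. The genes of the kinases that phosphorylate IκB, CHUK and IKBKB, had log2 changes of -0.061 and 0.0032, and that of their regulatory subunit, IKBKG, -0.15, all with overlapping bounds. CARD10 and MALT1, which act in a scaffold complex that activates these kinases, were the genes called lower. BCL10, a further gene of that complex, was not called, and its log2 change of 0.59 was the highest of the list. CARD10 went from 25.7 FPKM (bounds at 15.9 and 35.4) to 9.60 FPKM (bounds at 5.46 and 13.7), and MALT1 from 17.5 FPKM (bounds at 13.1 and 22.02) to 7.09 FPKM (bounds at 5.10 and 9.07).

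Among known target genes, 14 of 18 secreted products were tested, 12 were called higher (85.7%, beside 4.67% of all tested genes) and 0 lower (beside 4.61%), with a median log2 change of 3.80. The cytokine genes CSF3, IL1B and IL8 had log2 changes of 8.60, 8.40 and 5.28, and CCL2 had -0.87 with overlapping bounds. IL1A, CCL20 and MMP9 had 0.219, 0.121 and 0.189 FPKM in the parental line, and passed the filter through LM2. Not tested were CCL5 (0.602 and 0.289 FPKM), CXCL5 (0.00512 and 0.0797 FPKM), TNF and LTB. The list was chosen with earlier results of these data known, so its share is a description and not a test. Of 18 targets that stay in or on the cell, 17 were tested, 5 were called higher (29.4%, beside the same 4.67%) and 0 lower, with a median of 0.56. PTGS2, a cyclooxygenase gene, rose from 0.455 to 45.97 FPKM, the anti-apoptotic gene BCL2A1 from 0.0605 to 13.6 FPKM, and the adhesion molecule gene VCAM1 from 0.585 to 11.6 FPKM. PTGS2 and BCL2A1 passed the filter through LM2, with less than 0.5 FPKM in the parental line. This list too was chosen with earlier results of these data known. CFLAR and IRF1, also known targets, had log2 changes of -1.13 and -0.69 with overlapping bounds.

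TNF, LTB and NFKBIL1 of these lists were listed at 0 in both lines, and IER3 at 0.0191 and 0 FPKM. All of them lie in the stretch of chromosome 6 that holds the MHC genes, which was singled out after these values were seen. There, 138 of 176 protein-coding genes (78.4%) were listed at 0 in both lines, beside 72 of 812 (8.87%) on the rest of the chromosome, so these entries cannot be read as absent expression. NFKBIE and TNFAIP3 lie on chromosome 6 outside that stretch.

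**Figure D4:**
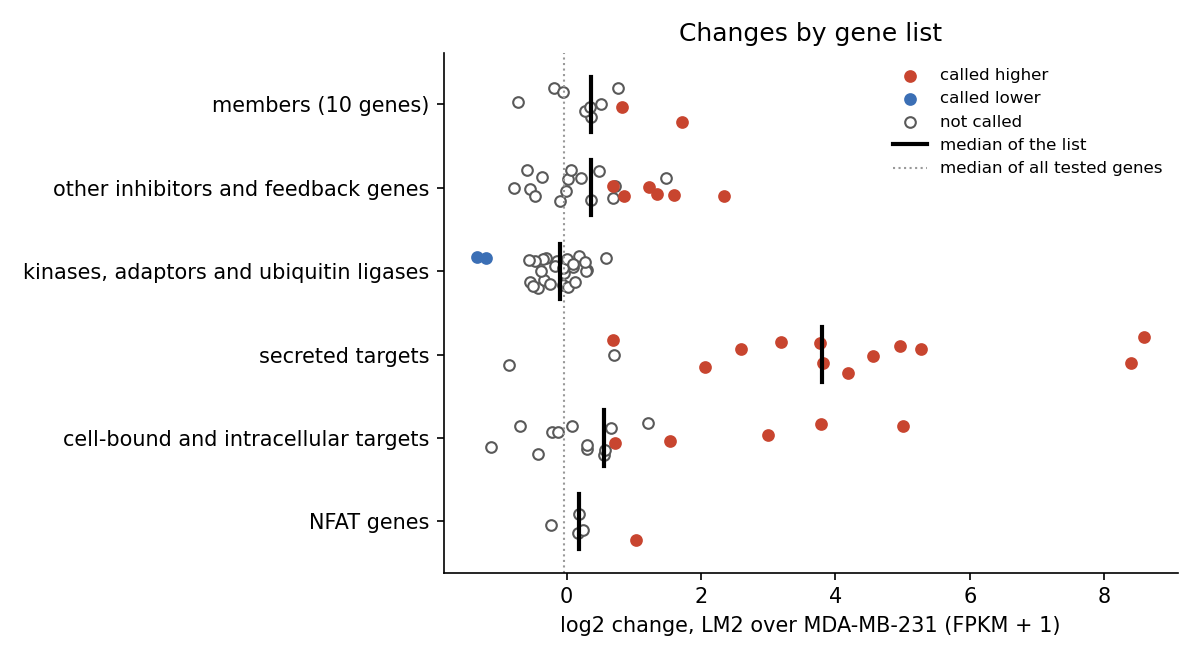
Log2 change of LM2 over MDA-MB-231 on FPKM + 1 for the tested genes of each list, each point a gene (red called higher, blue called lower, open not called), with a black bar at the median of the list. The dotted line marks the median of all tested genes (-0.044), and the median of the secreted targets is at 3.80.

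Each member was also set beside the tested protein-coding genes within 1 Mb of it on GRCh37. Neighbours were counted by gene identifier, so a gene name with more than 1 identifier counts more than once. The median log2 change of all 12082 tested protein-coding genes was -0.051, and 45.5% of all tested genes had a higher FPKM in LM2. NFKBIA (chromosome 14, 35870285 to 35873955) had a log2 change of 0.82, while its 15 neighbours had a median of -0.096, a highest value of 0.44 and no calls. TNFAIP3 (chromosome 6, 138188351 to 138204451) had 1.72, against a median of 0.18 and a highest value of 0.65 over 7 neighbours, also with no calls. No tested neighbour of either gene had a change as large in the same direction. The 30 neighbours of NFKB2 (chromosome 10, 104153867 to 104162281) had a median of 0.00023 and a highest value of 0.74, just under the 0.76 of NFKB2. NFKB1 (chromosome 4, 103422487 to 103538459) had 7 neighbours with a median of 0.23, of which 5 had a higher FPKM in LM2.

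BCL3 (chromosome 19, 45250962 to 45263301) and RELB (45504719 to 45541450) are 241.4 kb apart and share 42 neighbours, here counted by gene name. Their log2 changes of -0.73 and 0.27 lie on either side of neighbour medians of -0.15 and -0.17. RELA (chromosome 11, 65421070 to 65430561), at -0.19, lies where 54 of 71 neighbours had a lower FPKM in LM2, with a median of -0.25. Of all 13911 tested genes, 7585 had a lower FPKM in LM2. The neighbours of NFKBIB (chromosome 19, 39390340 to 39399533) had a median of -0.26, those of NFKBIE (chromosome 6, 44225903 to 44233525) -0.33, and those of REL (chromosome 2, 61108626 to 61158747) -0.19, each below the log2 change of the member.

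**Figure D5:**
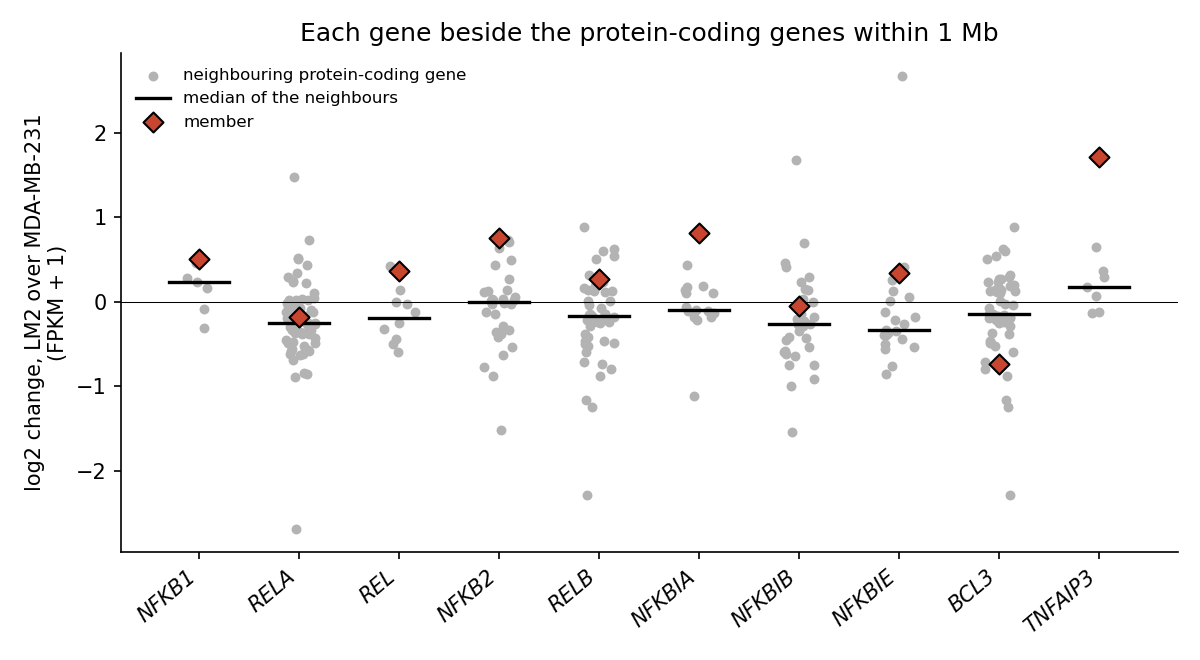
Log2 change of LM2 over MDA-MB-231 on FPKM + 1 for each member (red diamond) and the tested protein-coding genes within 1 Mb of it (grey points), with a black line at the median of the neighbours. The diamonds of NFKB1, NFKB2, NFKBIA and TNFAIP3 lie above all of their neighbours, and that of BCL3 lies under 46 of 51.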

How the data were processed

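Per the labels and the paper's methods, the authors mapped the reads to hg19 with TopHat2, quantified GENCODE 19 genes as FPKM and compared the lines with Cuffdiff. The deposited table holds 1 FPKM per gene and line, merged over 2 libraries, with its bounds and a status. The scaling of library sizes and the use of strand are not given in the sources used here. The table holds no depth per library and the study's totals of aligned reads were not used here, so precision was read from the bounds, which at the median over tested genes lay 38.6% of the FPKM away in the parental line and 38.1% in LM2.

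Log2 changes were taken on FPKM + 1, which understates the change of low genes. Tested were genes whose status was OK for both lines, at a mean of at least 0.5 FPKM. The study's criterion of 1.5-fold was kept, and bounds that do not overlap took the place of its q-values. The 95% intervals cover only what the bounds cover. Positions and exon overlaps came from GENCODE 44 on GRCh37. The call rule was also run on simulated data whose noise was taken from the same bounds. The simulation held no variation between libraries, so it is no check on replicates. Software was pandas 2.3.3 and NumPy 2.4.6 under Python 3.11.15, and figures were drawn with Matplotlib 3.10.9. All 10 members are named, and of each further list the called genes with the largest changes, at most 3 in each direction. Other genes were named after their values were seen. The members and lists were chosen with earlier results of these data known.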

Additional observations from a re-analysis of the deposited data

How the results depend on the processing

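No paired analysis was possible because the table holds no value per library, and for the same reason no library could be left out. Under 11 alternatives the direction of change held for the members, except for NFKBIB, whose log2 change became 0.024 with the lines scaled to the same FPKM sum and 0.056 with that sum taken without the 10 highest genes and genes at 0. REL could not be tested at a mean of at least 5 FPKM. NFKBIA (0.82) was not called at 2-fold. With the fold alone, and with the fold and a 95% interval of the difference that leaves out 0, NFKB2 (0.76) and BCL3 (-0.73) were also called. Members called numbered 4 with the fold alone, 4 with the interval and 1 at 2-fold. All genes called numbered 3074, 2009 and 853 of 13911 tested. At a mean of at least 5 FPKM, 764 of 9519 tested genes were called. The fold alone called 11 of the other inhibitors and feedback genes (9 higher, 2 lower). It called 9 of the cell-bound and intracellular targets (7 higher, 2 lower) and 14 of the secreted targets (13 higher, 1 lower). With the fold and the interval, 9 of the inhibitors and feedback genes were called (9 higher). For the cell-bound and intracellular targets it was 7 (5 higher, 2 lower), and for the secreted targets 14 (13 higher, 1 lower). At a mean of at least 5 FPKM, 2 NFAT genes were tested, NFATC4 not among them, and 0 were called. The scalings raised LM2 over the parental line by 0.053 to 0.12 on the log2 scale. Neighbour medians within 500 kb, added after the data were seen, kept their sign for all 10 members. The width of the bounds limits what can be said of RELA and NFKBIB.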

Other observations

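The NFAT genes encode transcription factors whose DNA-binding domain is related to that of the NF-κB subunits. All 5 were tested, and 1 was called higher in LM2, where 4.67% of all tested genes were. This call rests on low levels. NFATC4 measured 0.304 FPKM in the parental line, bounded by 0 and 0.702, and 1.67 FPKM in LM2, bounded by 0.926 and 2.41. It passed the filter through LM2. The other 4 had log2 changes of -0.24 to 0.25, and the median of the 5 was 0.18.

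The κB consensus was found in the RefSeq promoter windows of 7 of 13 secreted targets held in the table (53.8%), 7 of 17 cell-bound and intracellular targets (41.2%) and 8 of 21 other inhibitors and feedback genes (38.1%). It was found in 3 of 24 kinases, adaptors and ubiquitin ligases (12.5%) and 2 of 4 NFAT genes (50%). Of the tested genes found by symbol, 17.4% held it. The GC content of the windows of these lists was not measured.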
